A study of Homo sapiens with 15 samples.

Results

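The genes described here are the kinases, phosphatases and substrates of the pathway that switches cofilin on and off: the LIM kinases LIMK1 and LIMK2, the testis-associated kinase TESK1, the slingshot phosphatases SSH1, SSH2 and SSH3, cofilin (CFL1), destrin (DSTN) and the twinfilins TWF1 and TWF2. These 10 genes were taken by symbol from the 57820 gene identifiers of the files, with 1 row per identifier. The set was chosen by values of the same data: LIMK1, SSH1 and TWF1 had passed the test for a rise after RNF5 knockdown in all 3 lines, and the others are relatives or partners of these. The change of a member with knockdown is therefore given here as a description, with no p-value. All 10 members were above 0 in every library, so none was lost to the filter on low values.

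The study knocked down RNF5, an endoplasmic reticulum ubiquitin ligase, in established lines of acute myeloid leukemia and sequenced their RNA to learn which transcripts depended on it. MOLM-13 gave 3 control and 2 knockdown libraries, U937 gave 2 and 2, and HL-60 gave 3 and 3. All cells carried a lentiviral pLKO vector, which was empty in the controls (pLKO) and expressed a short hairpin RNA against RNF5 in the knockdown cells (shRNF5). RNA was taken 7 days after knockdown by the sample labels and 5 days by the series design, and the sources used here do not say which of the study's hairpins was sequenced or whether replicates were separate cultures, so p-values measure only the spread between these libraries.

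Cofilin and destrin bind actin filaments, sever them and free monomers from their ends. LIM kinases and TESK kinases phosphorylate cofilin near its start, which stops it from binding actin, and slingshot phosphatases remove that phosphate. The LIM kinases are themselves switched on by ROCK and PAK kinases downstream of small GTPases. Twinfilins are built from repeated cofilin-like domains, bind actin monomers and capping protein, and act beside cofilin at filament ends. In leukocytes this cycle serves migration, adhesion and the uptake of particles.

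The values are normalized read counts, which are read counts that the authors scaled by a factor per library, line by line, and rounded to whole numbers. Genes below the authors' filter in a line are listed there at 0, so a 0 is not a measured absence. The spacing of the rounded values gave an estimated 9700000 to 63100000 counted reads per library, the deepest of which was MOLM-13 shRNF5 replicate 1. RNF5 itself lay between 506 and 1223 in the 8 pLKO libraries and between 37 and 133 in the 7 shRNF5 libraries. RNF5 fell in each line, with a log2 change of -3.77 ± 0.18 (SE) for MOLM-13 (limma adjusted p = 0.000336), -3.64 ± 0.37 for U937 (adjusted p = 0.00287) and -3.25 ± 0.39 for HL-60 (adjusted p = 0.00125). The U937 call was lost without pLKO replicate 2 (adjusted p = 0.256) or shRNF5 replicate 1 (adjusted p = 0.292). Of 9 haematopoietic and myeloid markers, 9 were above 0 in MOLM-13, 8 in U937, where CD14 was at 0, and 7 in HL-60, where CD14 and CSF1R were at 0. Their summed value in HL-60, mostly MPO, was 113951 to 138578 with pLKO and 150406 to 217989 with shRNF5. The sum was 36906 to 59272 and 38404 to 64092 in MOLM-13, and 20745 to 22723 and 17286 to 20813 in U937. Without overlap between the groups, CD33 in HL-60 (1337 to 1505 with pLKO, 959 to 1070 with shRNF5), SPI1 in U937 (1151 to 1962 and 759 to 991) and CD14 in MOLM-13 (7 to 36 and 5 to 6) were lower with shRNF5, and MPO and PTPRC in HL-60 and CSF1R in U937 were higher. Of the markers of other cells, CD3E, MS4A1, EPCAM and KRT19 were at 0 in every library, and COL1A1, a collagen of stromal cells, was at 0 in MOLM-13 and HL-60 but at 39 to 234 with pLKO and 15 to 29 with shRNF5 in U937; the part of these differences in the results below was not tested.

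The promoters of the members are shown because LIMK1, SSH1, SSH3 and TWF1 had moved together, while LIMK2, the paralog of LIMK1, had not. RefSeq promoters (GRCh38.p14, from 250 bases before to 50 bases after a transcript start) were found for 10 of 10 members, 14 promoters in all. Below they are written 5′ to 3′ on the gene's strand, and the capitals mark the GC box GGGCGG or its reverse complement CCGCCC, with overlapping matches counted.
LIMK1, chr7:74083554-74083853, forward strand: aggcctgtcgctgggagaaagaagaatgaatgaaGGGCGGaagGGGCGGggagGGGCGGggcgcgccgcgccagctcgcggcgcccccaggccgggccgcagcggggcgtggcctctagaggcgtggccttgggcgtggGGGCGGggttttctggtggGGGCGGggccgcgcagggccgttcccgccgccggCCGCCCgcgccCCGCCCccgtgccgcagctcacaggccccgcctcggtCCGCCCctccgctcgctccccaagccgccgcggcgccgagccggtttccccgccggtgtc
SSH1, chr12:108857534-108857833, reverse strand: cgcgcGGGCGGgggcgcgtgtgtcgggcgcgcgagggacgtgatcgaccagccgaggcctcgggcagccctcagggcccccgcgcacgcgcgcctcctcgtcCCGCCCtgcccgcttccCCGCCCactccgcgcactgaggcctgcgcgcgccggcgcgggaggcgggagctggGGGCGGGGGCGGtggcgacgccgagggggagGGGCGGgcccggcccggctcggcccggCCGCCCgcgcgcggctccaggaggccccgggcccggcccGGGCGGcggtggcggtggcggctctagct
SSH3, chr11:67303280-67303579, forward strand: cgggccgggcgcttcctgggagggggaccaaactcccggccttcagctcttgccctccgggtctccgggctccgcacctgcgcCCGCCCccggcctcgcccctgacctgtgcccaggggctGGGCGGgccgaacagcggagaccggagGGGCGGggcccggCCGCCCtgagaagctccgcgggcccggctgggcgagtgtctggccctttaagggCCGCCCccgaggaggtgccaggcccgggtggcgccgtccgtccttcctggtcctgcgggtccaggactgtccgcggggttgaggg
TWF1, chr12:43806268-43806567, reverse strand: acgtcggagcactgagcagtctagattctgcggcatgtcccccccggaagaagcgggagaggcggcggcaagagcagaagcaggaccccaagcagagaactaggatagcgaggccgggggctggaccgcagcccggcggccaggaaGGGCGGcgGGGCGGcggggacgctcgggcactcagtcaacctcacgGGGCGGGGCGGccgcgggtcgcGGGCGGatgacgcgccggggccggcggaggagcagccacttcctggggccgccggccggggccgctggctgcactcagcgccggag
LIMK2, chr22:31212048-31212347, forward strand: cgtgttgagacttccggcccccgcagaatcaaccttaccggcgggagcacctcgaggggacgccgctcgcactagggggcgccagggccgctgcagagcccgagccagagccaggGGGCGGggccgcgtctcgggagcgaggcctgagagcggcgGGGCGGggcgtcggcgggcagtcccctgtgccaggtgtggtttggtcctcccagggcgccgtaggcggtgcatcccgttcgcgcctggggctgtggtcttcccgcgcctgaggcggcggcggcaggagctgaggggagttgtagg

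These windows held 8 GC boxes for LIMK1, 8 for SSH1, 5 for SSH3, 5 for TWF1 and 2 for LIMK2. The first promoters of the other members held 5 for TESK1, 4 for SSH2, 4 for TWF2, 2 for CFL1 and 2 for DSTN. TESK1 thus had as many as SSH3 and TWF1, and LIMK2, SSH2, TWF2, CFL1 and DSTN had fewer. These members were not all without change, since TWF2 and DSTN were higher with shRNF5 in HL-60 without overlap, as given below. A link between the counts and the changes was not tested. At least 1 GC box was found in 11 of the 14 member promoters, against 45% of all 35116 promoters of the same length in the table. The letters CCAAT, on either strand, were found in 3 member promoters and in 34.6% of all promoters. The TATA box TATAAA was present in none of the 14, against 11.5% of all promoters, on either strand. The E-box CACGTG was in none either, against 7.26% of all. The same held for the AP-1 site TGANTCA, against 7.71% of all. The first promoters of LIMK1, SSH1, SSH3 and TWF1 were 79.7%, 85.0%, 77.0% and 74.7% G or C. Those of LIMK2, TESK1, SSH2 and TWF2 were 74.0%, 72.3%, 73.7% and 75.0%, and those of CFL1 and DSTN 70.0% and 71.0%. The median of all promoters was 58.7%. LIMK1, LIMK2, SSH1 and SSH2 each had a second promoter in the table, and those of LIMK1, LIMK2 and SSH1 held no GC box. The letters occur in members that moved and in members that did not, and nothing was measured at these sites here.

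By GENCODE annotation on GRCh37, the build to which the reads were aligned, LIMK1 lies at chr7:73497263-73536855, LIMK2 at chr22:31608225-31676066 and TESK1 at chr9:35605259-35610038, all on the forward strand. SSH1 lies at chr12:109171967-109251366 and SSH2 at chr17:27952956-28257294, both on the reverse strand, and SSH3 at chr11:67070949-67080078 on the forward strand. CFL1 lies at chr11:65590493-65629497 (reverse), DSTN at chr20:17550720-17590564 (forward), TWF1 at chr12:44187526-44200131 (reverse) and TWF2 at chr3:52262628-52280804 (reverse). TESK1 overlaps CD72, SSH2 overlaps EFCAB5, CFL1 overlaps SNX32 and MUS81, TWF1 overlaps IRAK4 and TWF2 overlaps PPM1M, each on the opposite strand, and TWF2 also overlaps a protein-coding gene that has no symbol in the annotation on its own strand. Since the strand setting of the counting is not given in the sources used here, reads from such overlaps cannot be told apart. Of 13 pseudogenes of CFL1, DSTN and TWF1 in the files, 1 was above 0 in any library, so how reads of near-identical sequence were shared is uncertain for these genes.

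Levels were compared between genes after division by the length of the canonical transcript. The labels name a 3′ end library kit and the study's methods a kit that covers whole transcripts, so these levels rest on the second. In MOLM-13 pLKO cells CFL1 was far above the others, at 11437 ± 1626 normalized reads per kb (SD, n = 3). DSTN (579.1 ± 90.9) and TWF2 (512.4 ± 98.1) followed with overlapping ranges, then TWF1 (322.7 ± 34.7) and SSH3 (302.0 ± 27.8), whose ranges also overlapped. SSH2 (165.9 ± 16.4), LIMK2 (162.3 ± 28.9) and LIMK1 (149.2 ± 20.4) did not differ beyond their spread. SSH1 (116.7 ± 24.3) touched the range of LIMK1, and TESK1 (53.2 ± 16.5) was below all others.

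U937 pLKO cells had a different order of the same genes. CFL1 was again highest per kb (5776 ± 2442, n = 2), and the ranges of TWF2 (775.7 ± 138.4) and DSTN (741.7 ± 75.0) overlapped behind it. TESK1 (240.1 ± 92.5), LIMK1 (214.0 ± 17.7) and LIMK2 (167.4 ± 60.9) came next without separation between neighbours. TWF1 (75.7 ± 9.0) and SSH2 (75.2 ± 0.1) were level with each other, SSH1 (41.1 ± 13.8) was lower and SSH3 (8.5 ± 0.3) was lowest.

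In HL-60 pLKO cells CFL1 was at 7136 ± 1042 per kb (n = 3), followed by DSTN (596.9 ± 54.7) and TWF2 (292.2 ± 52.6). LIMK2 (180.1 ± 3.5) and TWF1 (160.9 ± 17.7) overlapped, as did SSH2 (78.6 ± 18.6) and LIMK1 (63.3 ± 4.8). SSH1 (36.8 ± 1.9), TESK1 (30.3 ± 2.3) and SSH3 (14.7 ± 4.1) were lowest and did not overlap with each other. CFL1, the substrate, was thus the most abundant member per kb in every line, and a phosphatase or TESK1 the least abundant. Because each line was normalized separately, the levels of different lines were not tested against each other.

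Ratios of related genes within a library depend neither on that normalization nor, between lines, on transcript length. They are given as a description, with no p-value, since the pLKO libraries are an arm of the contrast that chose the set. For LIMK1 over LIMK2 the log2 ratio of normalized read counts was -0.31, -0.14 and -0.28 across the MOLM-13 pLKO libraries, -0.02 and 0.57 for U937, and -1.58, -1.53 and -1.79 in HL-60. The HL-60 libraries were all lowest, so that LIMK1 reads were 0.32 times LIMK2 reads there, 0.85 times in MOLM-13 and 1.21 times in U937. The highest line mean exceeded the lowest by 1.91.

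For the slingshots, SSH1 over SSH3 was 0.46, 1.01 and 1.05 on the log2 scale in MOLM-13 pLKO libraries, 4.73 and 4.09 in U937, and 3.27, 3.26 and 4.13 in HL-60. SSH1 reads were 1.79 times SSH3 reads in MOLM-13, 21.3 times in U937 and 11.76 times in HL-60, and the line means spanned 3.57. SSH3 had at most 48 normalized reads in the pLKO libraries of U937 and HL-60. Per kb, by the values above, SSH3 was higher than SSH1 in MOLM-13 (302.0 against 116.7) and lower for U937 (8.5 against 41.1) and HL-60 (14.7 against 36.8). SSH1 over SSH2 had line means of -0.06 ± 0.20 (SD, n = 3) in MOLM-13, -0.45 ± 0.49 (n = 2) in U937 and -0.61 ± 0.36 (n = 3) in HL-60, with overlapping libraries.

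Among the actin binders, TWF1 over TWF2 was -0.25, 0.53 and 0.42 in MOLM-13 pLKO libraries, -2.52 and -2.40 in U937, and 0.15, -0.30 and 0.26 in HL-60. U937 stood below both other lines, with TWF1 at 0.18 times TWF2 and a span of 2.69 between line means. CFL1 over DSTN was 2.83, 2.87 and 2.86 in MOLM-13, 1.1 and 1.79 in U937, and 2.16, 2.38 and 1.83 in HL-60. MOLM-13 was highest in each of its libraries, with CFL1 reads at 7.23 times DSTN reads, against 2.72 in U937 and 4.35 in HL-60, a span of 1.41. Without U937 pLKO replicate 2 the spans were 2.20 for LIMK1 over LIMK2, 3.26 for SSH1 over SSH3, 2.63 for TWF1 over TWF2 and 1.07 for CFL1 over DSTN.

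**Figure D1:**
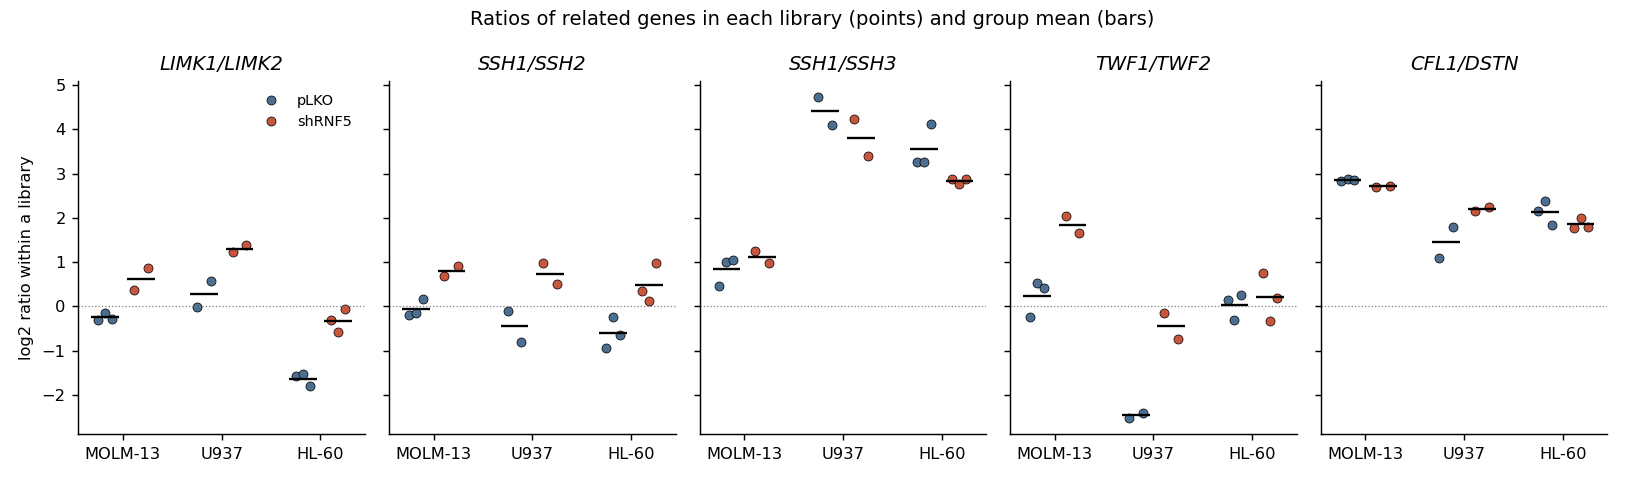
Log2 ratio of normalized read counts of 2 related genes within each library, by line on the horizontal axis. Points are libraries (blue pLKO, red shRNF5) and bars are group means; in pLKO cells the LIMK1 to LIMK2 ratio is lowest in HL-60 (mean -1.63), the SSH1 to SSH3 ratio lowest in MOLM-13 (0.84) and the TWF1 to TWF2 ratio lowest in U937 (-2.46).

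With shRNF5 the same ratios were as follows, as a description, since LIMK1, SSH1 and TWF1 were selected on this contrast. The LIMK1 to LIMK2 log2 ratio averaged 0.63 for MOLM-13, 1.3 for U937 and -0.32 for HL-60, and the shRNF5 libraries lay above the pLKO libraries of each line. The SSH1 to SSH3 ratio stayed widest in U937 (3.82) and HL-60 (2.84) and narrow in MOLM-13 (1.11). TWF1 over TWF2 averaged 1.85 for MOLM-13, -0.44 for U937 and 0.21 for HL-60. CFL1 over DSTN was 2.71, 2.20 and 1.85, so MOLM-13 was again the highest line and U937 no longer the lowest.

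LIMK1, whose product inactivates cofilin, had 579, 470 and 453 normalized reads with pLKO in MOLM-13 and 833 and 922 with shRNF5. In U937 it had 760 and 676 with pLKO and 1631 and 1379 with shRNF5, and in HL-60 218, 225 and 194 with pLKO and 533, 403 and 601 with shRNF5. Every shRNF5 library lay above every pLKO library of its line. The change was 0.82 ± 0.18 (SE) on the scale of log2(value + 1) for MOLM-13, 1.06 ± 0.25 for U937 and 1.25 ± 0.17 for HL-60, or 1.76, 2.09 and 2.38 times. In these bulk libraries more RNA per cell and a larger share of cells with the RNA cannot be told apart.

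LIMK2, which phosphorylates the same substrates, showed no such separation. It ranged from 518 to 716 with pLKO and from 503 to 638 with shRNF5 in MOLM-13, from 456 to 772 and from 530 to 700 in U937, and from 653 to 675 and from 604 to 661 in HL-60. The groups overlapped in each line, and the changes were -0.06 ± 0.21, 0.04 ± 0.32 and -0.06 ± 0.12. TESK1, a kinase of cofilin that does not depend on ROCK or PAK, was low in MOLM-13 (91 to 174 with pLKO, 116 to 146 with shRNF5). In U937 it was at 773 and 442 with pLKO and at 288 and 361 with shRNF5, and in HL-60 at 70, 80 and 80 and at 82, 114 and 90. Its shRNF5 libraries were thus all below in U937 (-0.86 ± 0.34) and all above in HL-60 (0.30 ± 0.21), and neither change passed the threshold; without U937 pLKO replicate 3 the U937 change was -1.26 and passed, and without pLKO replicate 2 it was -0.45 and did not.

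The phosphatase SSH1, which reactivates cofilin, had 1210, 1511 and 1844 normalized reads with pLKO in MOLM-13 and 2786 and 2646 with shRNF5. The U937 values were 663 and 409 with pLKO and 1391 and 1022 with shRNF5, and those of HL-60 were 463, 469 and 508 with pLKO and 781, 637 and 705 with shRNF5. As for LIMK1, the groups did not overlap in any line, and the changes were 0.86 ± 0.19, 1.19 ± 0.31 and 0.56 ± 0.13. A kinase and a phosphatase of opposite action on cofilin were thus both higher.

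SSH3, a slingshot that dephosphorylates cofilin less efficiently than SSH1, had 878, 751 and 891 normalized reads with pLKO in MOLM-13 and 1181 and 1338 with shRNF5. In U937 it moved from 24 and 23 to 73 and 96, and in HL-60 from 47, 48 and 28 to 106, 93 and 95. The shRNF5 libraries were above in all lines, by 0.59 ± 0.16, 1.79 ± 0.51 and 1.27 ± 0.26, and SSH3 stands just outside the criterion behind the set, since its MOLM-13 change did not pass the threshold. Its U937 and HL-60 values are low, where each read weighs more and the rounding is coarser. SSH2 had 1394 to 1680 normalized reads with pLKO in MOLM-13 and 1400 to 1731 with shRNF5, 711 to 721 in all U937 libraries, and 550 to 893 and 355 to 612 in HL-60. Its groups overlapped in each line, with changes of -0.01 ± 0.16, 0.01 ± 0.25 and -0.54 ± 0.23, so that the sign in HL-60 was opposite to that of SSH1 and SSH3. The HL-60 change of SSH2 passed the threshold without pLKO replicate 2 (-0.74) or shRNF5 replicate 1, and was -0.29 without shRNF5 replicate 3.

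CFL1, the main substrate of the pathway, had 13039 to 16577 normalized reads with pLKO in MOLM-13 and 11446 to 12290 with shRNF5, 5041 and 9341 against 10717 and 9371 in U937, and 7942 to 10365 against 9668 to 10651 in HL-60. The shRNF5 libraries were below in MOLM-13 (-0.25 ± 0.15), above in U937 (0.55 ± 0.31) and overlapping in HL-60 (0.22 ± 0.14), and none of these changes passed. In U937 pLKO replicate 2 was the low library for CFL1; without it the change was 0.10, and without replicate 3 it was 0.99 and passed. DSTN, which depolymerizes actin more strongly than cofilin, had 1791 to 2329 normalized reads with pLKO and 1758 to 1857 with shRNF5 in MOLM-13, and 2345 to 2706 and 1979 to 2409 in U937. Its HL-60 values were 1873, 1987 and 2237 with pLKO and 2811, 2688 and 3070 with shRNF5, without overlap. The changes of DSTN were -0.11 ± 0.16, -0.21 ± 0.24 and 0.49 ± 0.12, and the last passed.

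The twinfilins parted between lines. TWF1 had 845, 1012 and 1035 normalized reads with pLKO in MOLM-13 and 1764 and 1899 with shRNF5, 245 and 207 against 664 and 408 in U937, and 442, 459 and 541 against 1032, 610 and 1257 in HL-60. It was above in each line without overlap, by 0.93 ± 0.16, 1.21 ± 0.33 and 0.95 ± 0.23. TWF2 had 1005, 702 and 774 normalized reads against 428 and 604 in MOLM-13, 1410 and 1094 against 743 and 676 in U937, and 399, 565 and 451 against 608, 767 and 1105 in HL-60. TWF2 was thus below in MOLM-13 (-0.68 ± 0.22) and U937 (-0.81 ± 0.26) and above in HL-60 (0.78 ± 0.21), each time without overlap; the U937 and HL-60 changes passed and the MOLM-13 change did not. The difference between lines was not tested, since this contrast was used in choosing the set.

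**Figure D2:**
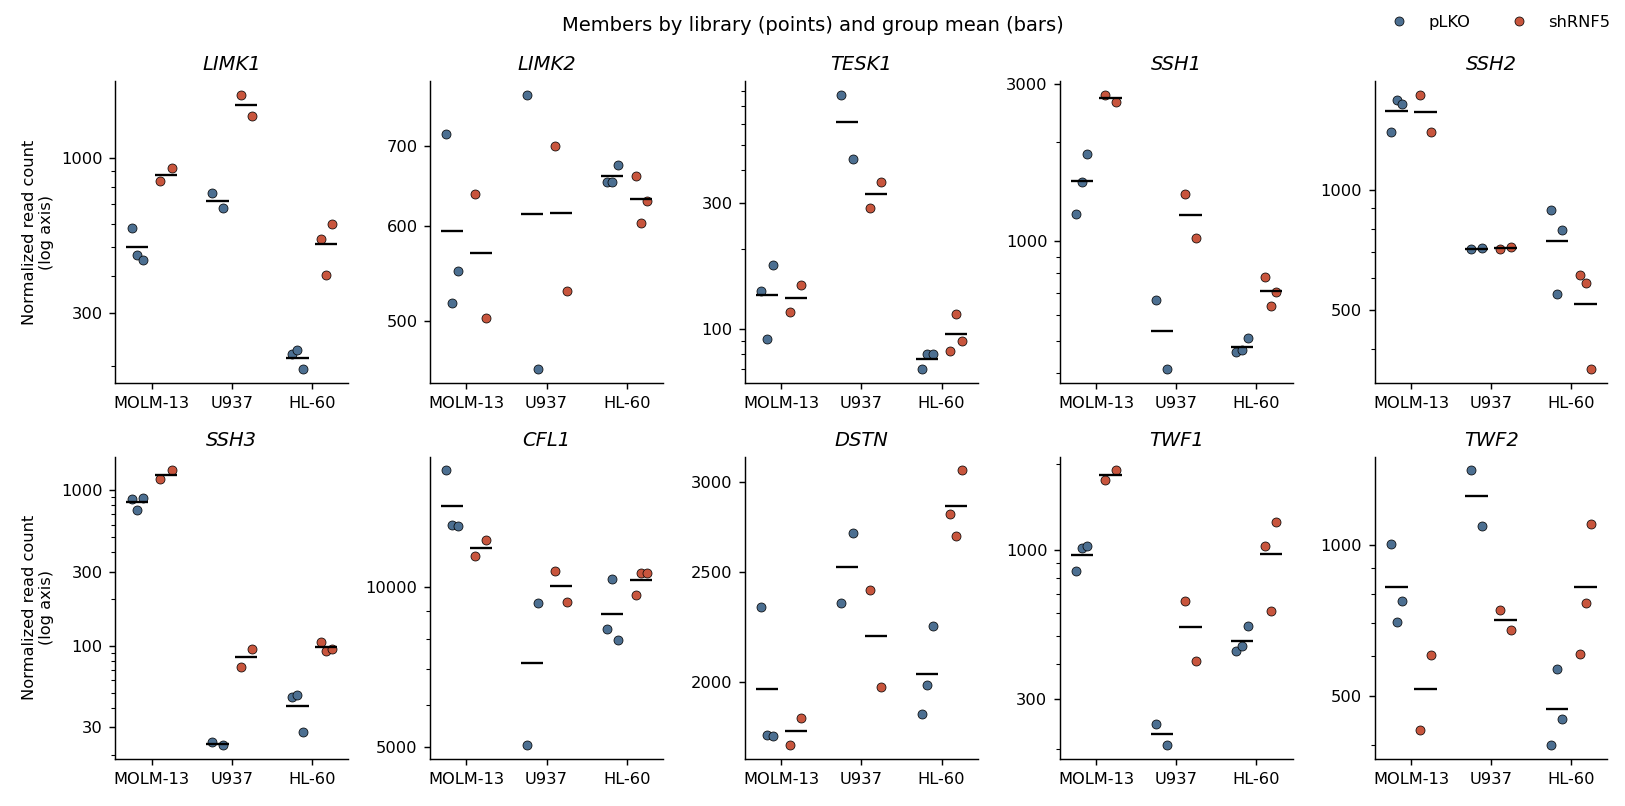
Normalized read count of each member (log axis, a scale of its own per gene) in the 15 libraries by line. Points are libraries (blue pLKO, red shRNF5) and bars are group means; LIMK1, SSH1, SSH3 and TWF1 have every red point above every blue point of the line, LIMK2 has overlapping points in each line, and each line was normalized separately.

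The threshold used above was an adjusted p under 0.1 in limma over all genes of the line with an absolute log2 fold change over 0.4, and a gene that met it is said to be called. By it, 3 of 10 members rose in MOLM-13 (LIMK1, SSH1 and TWF1), against 1.03% of the 13026 genes tested. In U937, 4 rose (those and SSH3), against 6.92% of 13165 genes, and TWF2 fell, against 8.74%. In HL-60, 6 rose (LIMK1, SSH1, SSH3, DSTN, TWF1 and TWF2), against 13.6% of 12570 genes. No member fell in MOLM-13, where 1.01% of all genes fell, or in HL-60, where 12.3% did; at an unadjusted p under 0.05 in limma 1 member was lower in each. Since the contrast chose the set, nothing is read from these shares.

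The shRNF5 libraries lay above all pLKO libraries for 4 members in the MOLM-13 cells, 5 for U937 and 7 for HL-60, against 19.6%, 29.0% and 19.9% of all genes. They lay below them for 2 members in MOLM-13 and 2 in U937 and for none in HL-60, against 19.2%, 30.2% and 18.6%. The median change over the members was 0 for MOLM-13, 0.29 for U937 and 0.52 for HL-60, where the median of all genes was 0.01, 0 and 0. In MOLM-13 the 3 calls were lost without pLKO replicate 2 or 3 or either shRNF5 replicate, that of TWF1 also in one fit over all libraries, and without pLKO replicate 1 a rise of SSH3 was added, for 4. In U937 every call was lost without pLKO replicate 2 or either shRNF5 replicate. Without pLKO replicate 3 the calls of SSH1 and TWF1 were lost too, while a rise of CFL1 and a fall of TESK1 were added. No U937 call of SSH1 or TWF1 thus outlasted the omission of any library. With the U937 libraries left out in turn, SSH1 changed by 0.85 to 1.54 and TWF1 by 0.85 to 1.56.

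**Figure D3:**
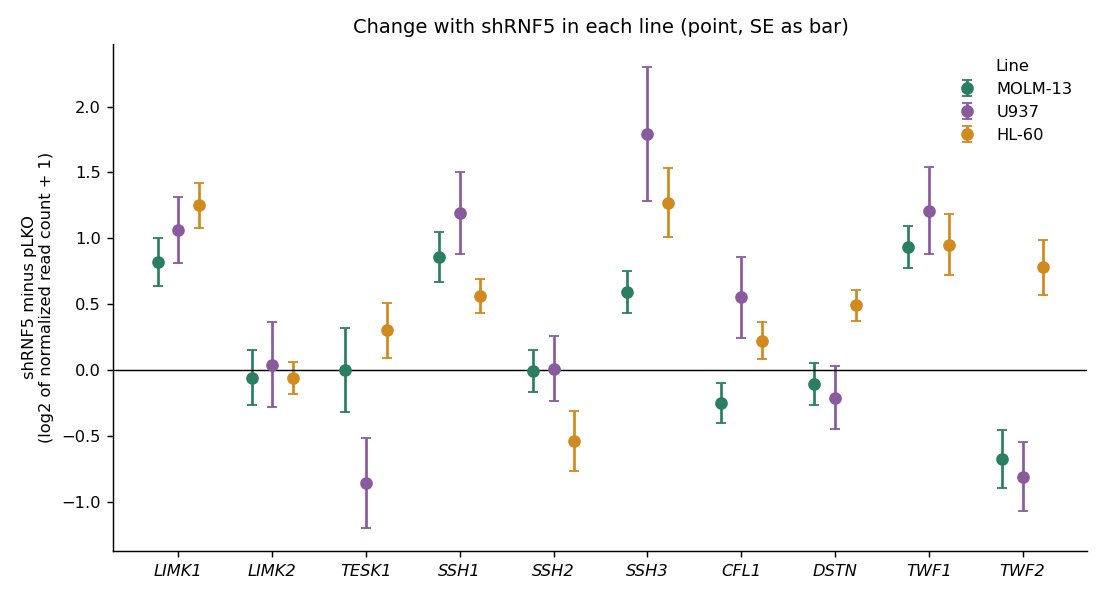
Difference between shRNF5 and pLKO on the scale of log2(normalized read count + 1) for each member (horizontal axis) in MOLM-13 (green), U937 (purple) and HL-60 (orange), with the SE from limma as the bar. LIMK1, SSH1, SSH3 and TWF1 lie above 0 in each line, from 0.56 to 1.79, LIMK2 lies within 0.06 of 0, and TWF2 lies below 0 in MOLM-13 and U937 and above it in HL-60.

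The libraries in which LIMK1 was high were compared with those of other genes by Pearson's r over the 15 libraries, after the line mean of log2(value + 1) was taken from each gene. Among 9625 genes with a mean of at least 50 in each line, the closest non-members were SDC4, a syndecan of focal adhesions (0.97), NRBP1, a pseudokinase (0.97), LAMB3, a laminin chain (0.95), PRRG4 (0.95) and CD82, a tetraspanin (0.95). Of the members, TWF1 (0.92, rank 25), SSH3 (0.90, rank 39) and SSH1 (0.81, rank 205) were closest, with ranks among all genes compared. DSTN (0.42), CFL1 (0.37), TWF2 (0.06), LIMK2 (0.04), TESK1 (-0.14) and SSH2 (-0.56) followed. Taking off the line mean keeps the difference between constructs, and LIMK1, SSH1 and TWF1 were chosen for a rise in it. The points share their construct, line and scaling, so this is a description of these libraries.

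The rest of the pathway was described by 59 genes in 4 lists that were not used to choose the set: 13 GTPases and kinases upstream of the LIM kinases, 11 relatives and cofactors of cofilin, 18 regulators of LIM kinases and slingshots (calcineurin, protein kinase D, 14-3-3 and HSP90 genes, RNF6, BMPR2, SPRED1 and SPRED2), and 17 actin genes, SRF coactivators and their targets. In MOLM-13, 56 were tested and 7 rose, with a median change of 0.12, and none fell in limma (4 were lower at an unadjusted p under 0.05). In U937, 14 of 52 rose, with a median of 0.48, and none fell (0 at an unadjusted p under 0.05). In HL-60, 10 of 54 rose and 5 fell, with a median of 0.11. Of all genes tested, 1.03% rose and 1.01% fell in MOLM-13, 6.92% and 8.74% in U937, and 13.6% and 12.3% in HL-60. The lists were chosen with earlier results of these data known. Their counts, here and list by list below, are therefore a description beside these shares.

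Upstream of the LIM kinases, 3 of 13 genes rose in MOLM-13, 1 of 11 in U937, and 4 of 11 rose and 1 fell in HL-60, with medians of 0.34, 0.27 and 0.11. The shares of all genes that rose were 1.03%, 6.92% and 13.6%, and 12.3% fell in HL-60. RHOB, a small GTPase of endosomes, had 61, 42 and 49 normalized reads with pLKO in MOLM-13 and 233 and 234 with shRNF5, a rise of 2.20 ± 0.28 (adjusted p = 0.0348). In the other lines it was listed at 0, as genes below the authors' filter are, and was not tested. RHOC, a small GTPase that activates ROCK, rose in MOLM-13 from 296, 255 and 328 to 527 and 569 (0.91 ± 0.19, adjusted p = 0.0853). It rose in HL-60 too, from 3, 20 and 15 to 21, 58 and 51 (1.88 ± 0.61, adjusted p = 0.0516), at levels where a few reads matter. RAC2, the Rac of blood cells, rose in U937 from 768 and 696 to 1481 and 1418 (0.99 ± 0.24, adjusted p = 0.0428). The groups of these genes did not overlap in the lines where they rose. RHOC in HL-60 was not called without pLKO replicate 1 (1.15, adjusted p = 0.119), shRNF5 replicate 2 (1.62, 0.144) or shRNF5 replicate 3 (1.71, 0.165).

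Among the relatives and cofactors of cofilin, 1 of 11 rose in MOLM-13, 4 of 10 in U937 and 2 of 10 in HL-60, with medians of 0.13, 0.70 and 0.35. Beside these counts, 1.03%, 6.92% and 13.6% of all genes rose. TESK2, the paralog of TESK1, had 42, 61 and 79 normalized reads with pLKO in MOLM-13 and 167 and 193 with shRNF5 (1.60 ± 0.33, adjusted p = 0.0844). CORO1A, the coronin of blood cells, which helps cofilin disassemble filaments, rose in U937 from 4210 and 6227 to 13383 and 11961 (1.3 ± 0.27, adjusted p = 0.0266). CORO1B rose in HL-60 from 185, 350 and 359 to 610, 453 and 978 (1.18 ± 0.30, adjusted p = 0.0222), and that call held without each of the 6 libraries in turn. CFL2, the muscle cofilin, is named although the rule for naming genes did not select it, after its values were seen: it rose in HL-60 from 236, 244 and 257 to 548, 376 and 742 (1.12 ± 0.22, adjusted p = 0.00728), a call that also held without each library in turn. In MOLM-13 CFL2 had 388, 470 and 412 normalized reads with pLKO and 612 and 684 with shRNF5 (0.62 ± 0.17, adjusted p = 0.157), and in U937 356 and 285 against 771 and 467 (0.91 ± 0.33, adjusted p = 0.107). Its shRNF5 libraries were above in all 3 lines, although only the HL-60 change was called.

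Of the regulators of LIM kinases and slingshots, none of 17 was called in MOLM-13 by limma (0 at an unadjusted p under 0.05), 4 of 16 rose in U937, and 1 of 17 rose and 3 fell in HL-60, with medians of 0.03, 0.43 and 0.10. For all genes the shares were 6.92% for rises in U937, and 13.6% for rises and 12.3% for falls in HL-60. SPRED2, a Spred protein and inhibitor of Ras signaling whose relative SPRED1 binds TESK1, rose in U937 from 463 and 559 to 1009 and 1126 (1.07 ± 0.26, adjusted p = 0.0421). In HL-60 it fell from 989, 1064 and 939 to 511, 747 and 374 (-0.93 ± 0.21, adjusted p = 0.0142). SPRED1 fell in HL-60 from 698, 674 and 938 to 378, 435 and 246 (-1.15 ± 0.21, adjusted p = 0.00634). Both HL-60 calls held without each library in turn, and the groups did not overlap.

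Of the actin genes, SRF coactivators and targets, 3 of 15 rose in MOLM-13, 5 of 15 in U937, and 3 of 16 rose and 1 fell in HL-60, with medians of 0.08, 0.71 and -0.01. Rises made up 1.03%, 6.92% and 13.6% of all genes, and falls 12.3% in HL-60. FLNA, the filament crosslinker filamin A, rose in MOLM-13 (0.79 ± 0.16, adjusted p = 0.0853) and in U937 (1.15 ± 0.35, adjusted p = 0.0746), where the call was lost without each of the 4 libraries in turn (0.69 to 1.61). VCL, the adhesion protein vinculin, rose in the same lines, from 2914, 3731 and 3942 to 6859 and 6425 (0.92 ± 0.16, adjusted p = 0.0682) and from 2261 and 2104 to 4600 and 4109 (0.99 ± 0.23, adjusted p = 0.0373). MYH9, the heavy chain of non-muscle myosin, rose in MOLM-13 (0.72 ± 0.14, adjusted p = 0.078) and in HL-60 from 14630, 14995 and 15803 to 21392, 20244 and 20767 (0.46 ± 0.12, adjusted p = 0.0277). The MYH9 call in HL-60 held without each library in turn. TPM4, a tropomyosin that coats filaments, rose in U937 from 4762 and 5364 to 12579 and 11738 (1.27 ± 0.24, adjusted p = 0.0213) and in HL-60 with overlapping groups (0.58 ± 0.22, adjusted p = 0.0808), where it was called after 1 of the 6 omissions of a library. MKL2, a coactivator of SRF that actin monomers hold back, rose in U937 (1.05 ± 0.35, adjusted p = 0.0937), a call lost without any of the 4 libraries (0.66 to 1.44), and fell in HL-60 with overlapping groups (-0.65 ± 0.26, adjusted p = 0.0969). The HL-60 call of MKL2 was lost without pLKO replicate 1 or 3 or shRNF5 replicate 2 or 3, with adjusted p from 0.206 to 0.289.

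The calls of pathway genes in MOLM-13 and U937 depended on single libraries. Without MOLM-13 pLKO replicate 2 or either shRNF5 replicate no MOLM-13 rise was left, without pLKO replicate 3 there was 1 and without pLKO replicate 1 there were 9 rises and 2 falls. Without U937 pLKO replicate 2 or either shRNF5 replicate no U937 rise was left, and without pLKO replicate 3 there were 13 rises and 1 fall. In HL-60 the rises numbered 5 to 11 and the falls 3 to 6. With the MOLM-13 libraries left out in turn, RHOB changed by 2.07 to 2.34, TESK2 by 1.36 to 1.81 and VCL by 0.79 to 1.01. The same ranges in U937 were wider for FLNA and MKL2, as given above.

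**Figure D4:**
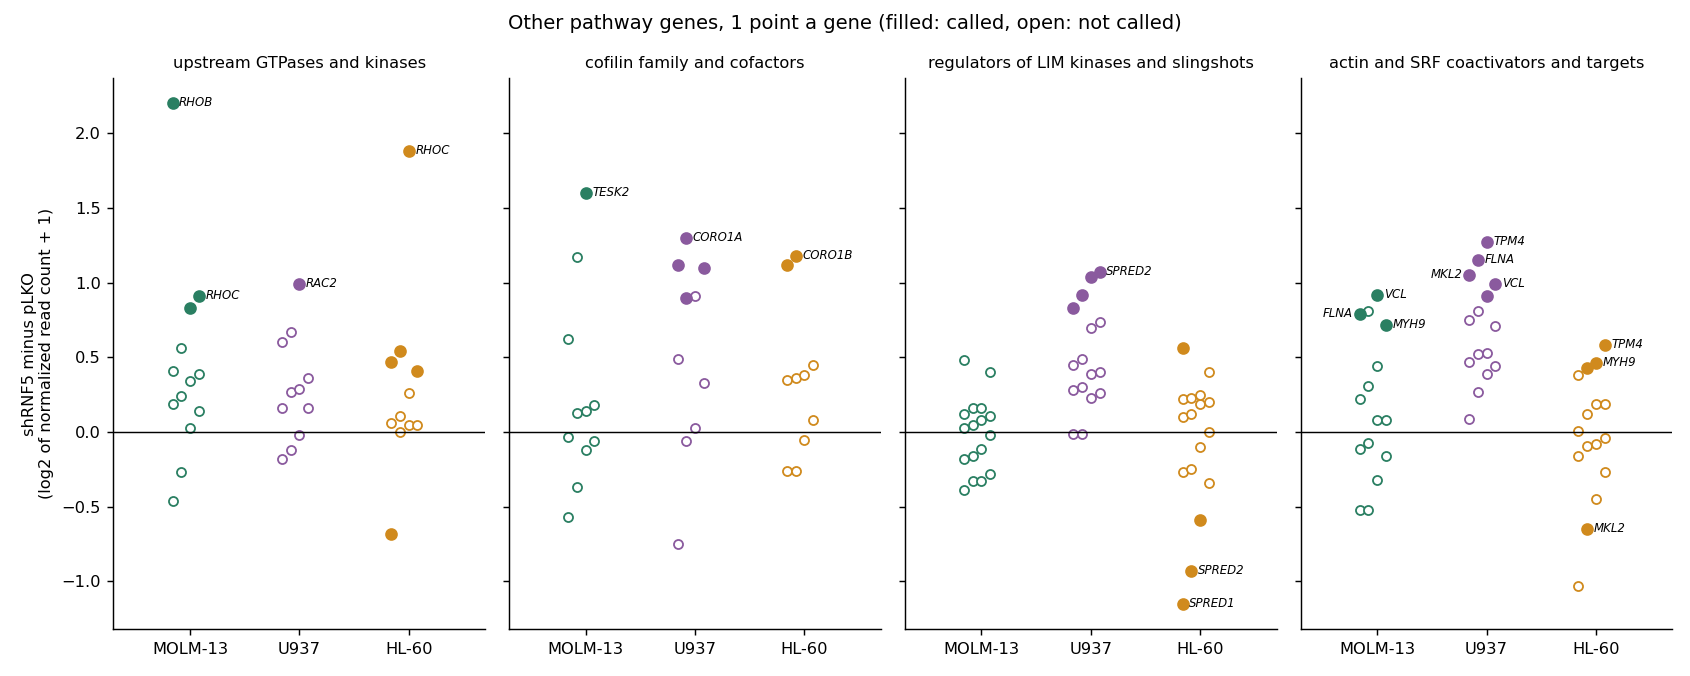
Difference between shRNF5 and pLKO on the scale of log2(normalized read count + 1) for the genes of the 4 pathway lists, 1 point a gene, in MOLM-13 (green), U937 (purple) and HL-60 (orange). Filled points are called genes, and names mark those given in the text by rule; above 0 there are 7 filled points for MOLM-13, 14 for U937 and 10 for HL-60, and HL-60 has 5 filled points below 0.

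Differences between lines in the response to shRNF5 were tested for 51 pathway genes above 0 in all 3 lines, with limma on 11072 genes and all 15 libraries together. The response differed between MOLM-13 and U937 for 17 genes, with the higher change in U937 for 16 of them, against 15.4% of all genes. Between MOLM-13 and HL-60 it differed for 6 genes, 4 of them higher in MOLM-13, against 8.82%. Between U937 and HL-60 it differed for 23 genes, 21 of them higher in U937, against 37.2%. The shares of all genes count both directions together. How the differing genes split by direction among all genes was not computed, so these splits are not read as particular to the pathway. The first count was 7 without MOLM-13 pLKO replicate 2 or shRNF5 replicate 1, 3 without MOLM-13 shRNF5 replicate 2, 4 without U937 pLKO replicate 2 and 2 without U937 shRNF5 replicate 1. The second was 0 without either MOLM-13 shRNF5 replicate, 3 without MOLM-13 or HL-60 pLKO replicate 1, and 2 without HL-60 pLKO replicate 3 or shRNF5 replicate 3. The third was 13 without U937 shRNF5 replicate 1.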

How the data were processed

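RNA-seq libraries of MOLM-13, U937 and HL-60 cells with pLKO or shRNF5 were grouped by construct and replicate number in the sample labels, 15 in all. By the study's methods and the submitters' processing notes, reads were trimmed, aligned to hg19 with STAR, counted per gene with featureCounts of Subread and normalized with edgeR. The deposited values are a score: for each line, the authors divided read counts by library factors, rounded the quotients and listed genes below their filter at 0. Because these are not counts, limma 3.58.1 in R 4.3.3 was run per line on all genes above 0, taking log2(value + 1), moderated variances (empirical Bayes, trended with the mean) and Benjamini-Hochberg adjustment; fold changes on this scale understate those of low genes. Library depth was inferred from how the rounded values are spaced, and no pair of libraries was identical. Fits, ratios and depths were tested on simulated data.

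The members and the pathway lists were chosen with earlier results of these data known. Named pathway genes were those called in the same direction in 2 or more lines, and the called gene with the largest change in each list and line. A planned permutation test of the ratios of related genes between lines is not used, since the pLKO libraries belong to the contrast that chose the set. The pairing was checked on the replicate numbers of the labels: the deviations of same-numbered libraries correlated by -0.447 to 0.386, not above 0.1 in every pair, so the numbers were not used in the models. Alternatives were pseudocounts of 0.5 and 10, a mean of at least 50, another scaling, no trend, an adjusted p under 0.05, one fit over all libraries, a replicate block, and leaving out each library. Pathway genes at 0 in a line were not tested there. PECAM1, on the marker list, was not matched by symbol, and the result of another marker is not reported here. Protein sequences were not used here.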

Additional observations from a re-analysis of the deposited data

Results flagged for a closer look

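By limma's test of the difference, the responses of 51 pathway genes were compared between lines. The response differed for 17 in MOLM-13 against U937, where 15.4% of all genes differed. It differed for 6 in MOLM-13 against HL-60 (8.82% of all genes) and for 23 in U937 against HL-60 (37.2% of all genes). These differences are signed, as the change of the first-named line minus that of the second. Of the genes named in the report, TESK2 differed by 2.34 on the log2 scale for MOLM-13 minus U937 (adjusted p = 0.0227). For U937 minus HL-60 it differed by -1.20 (adjusted p = 0.095). The change of TESK2 was below 0 for U937 (-0.75, not called) and above 0 for HL-60 (0.45, not called) and MOLM-13 (1.60, called). CORO1A changed less in MOLM-13 than in U937 (-1.67, adjusted p = 0.00782) and more in U937 than in HL-60 (1.35, adjusted p = 0.00272). SPRED2 differed in each pair, by -1.03 for MOLM-13 minus U937 (adjusted p = 0.0758), 0.96 for MOLM-13 minus HL-60 (adjusted p = 0.0907) and 1.99 for U937 minus HL-60 (adjusted p = 0.00117), and its relative SPRED1 by 1.26 for MOLM-13 minus HL-60 (adjusted p = 0.0457) and 1.45 for U937 minus HL-60 (adjusted p = 0.00723).

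The change of VCL was higher than that in HL-60 by 0.97 for MOLM-13 (adjusted p = 0.0525) and by 1.04 for U937 (adjusted p = 0.0123). That of MKL2 was higher by 1.46 (adjusted p = 0.0611) and 1.70 (adjusted p = 0.0107). MKL2 was called as a fall for HL-60 (-0.65) and a rise for U937 (1.05), and its MOLM-13 change (0.81) was not called. Between U937 and HL-60 the change was also higher in U937 for RAC2 (0.93, adjusted p = 0.0182), FLNA (1.23, adjusted p = 0.0219) and TPM4 (0.68, adjusted p = 0.0939), and lower for CORO1B (-1.24, adjusted p = 0.0942).

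Members whose shRNF5 libraries all lay on opposite sides of the pLKO libraries in different lines were TESK1 (-0.86 in U937, 0.30 in HL-60), CFL1 (-0.25 in MOLM-13, 0.55 in U937) and TWF2 (-0.68 in MOLM-13, -0.81 in U937, 0.78 in HL-60). These differences between lines were not tested, because the contrast was used in choosing the set.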

How the results depend on the processing

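Over 410 refits of member changes 408 stayed within 1 SD of the value reported, 2 moved by more and none changed sign while called. Refits that altered only the threshold, the trend, the filter on the mean or the joint fit leave a member's change as it was. Leaving out 1 library of a group of 2 moves its mean by less than the SD of that group. This count is therefore no measure of robustness. Without a mean-variance trend, 0 members and 1 pathway gene rose in MOLM-13, and 1 member and 1 pathway gene rose and 0 members fell in U937. With an adjusted p under 0.05, 0 members and 1 pathway gene rose in MOLM-13, 2 members and 8 pathway genes rose and 0 members fell in U937, and 6 pathway genes rose in HL-60. One fit over all libraries gave 3 pathway rises in MOLM-13, 2 member falls and 27 pathway rises in U937, and 1 member fall and 3 pathway falls in HL-60. The causes were not tested.

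With the replicate block, 2 pathway genes fell in MOLM-13, 1 member fell in HL-60, and the counts of differences between lines were 0 for MOLM-13 minus U937, 13 for MOLM-13 minus HL-60 and 8 for U937 minus HL-60. The MOLM-13 rise of LIMK1 was not called with it (0.75 on the log2 scale). The block moved no other count past 1.5 times. U937 shares 1 replicate number between its groups, so no block fit was possible for it alone.

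Leaving out 1 library at a time, with a lone library in an arm assumed to vary like the others, gave 0 to 4 member rises, 0 to 9 pathway rises and 0 to 2 pathway falls in MOLM-13. The U937 ranges were 0 to 3 and 0 to 2 for member rises and falls, 0 to 13 and 0 to 1 for pathway rises and falls, and -3.98 to -3.30 for the log2 change of RNF5. In HL-60 there were 6 member rises in each case, 0 to 1 member falls, 5 to 11 pathway rises and 3 to 6 pathway falls. Differences between lines numbered 2 to 23, 0 to 8 and 13 to 27 in the order above. The spans between line means were 1.61 to 2.20 for LIMK1 over LIMK2, 3.26 to 3.89 for SSH1 over SSH3, 2.54 to 2.93 for TWF1 over TWF2 and 1.07 to 1.75 for CFL1 over DSTN. Depth limits low genes most, such as SSH3 in U937 and HL-60. In MOLM-13, where every shRNF5 library was deeper than every pLKO library, RHOB and TESK2 were such genes.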
